A study of Mus musculus with 22 samples.

Results

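The aryl hydrocarbon receptor genes Ahr, Arnt and Tiparp and the cytochrome P450 genes Cyp2e1, Cyp1a2, Cyp1a1, Cyp2a4 and Cyp2a5 were followed in livers of mice labelled as Tcf7l2 knockouts and in their controls. The 8 genes were chosen by name, as every probe that the array names for them, which gave 14 of the 41174 probes and 8 of the 28034 gene names on the array. RNA of 22 liver samples was measured on 22 arrays of 2 colours, with liver RNA in the Cy3 channel and the same commercial mouse reference RNA in the Cy5 channel of every array. All mice carried the strain label C57BL/6. Newborn knockouts (Tcf7l2-/-, 4 samples) and newborn wild types (Tcf7l2+/+, 4 samples) had been given 50 ul of a 10% glucose solution subcutaneously, and their livers were isolated at 5 h of age. Adult knockouts (Tcf7l2loxp/loxp;SA-CreERT2, 4 fasted and 3 fed) and adult controls (Tcf7l2loxp/loxp, 4 fasted and 3 fed) had all received tamoxifen at 3 weeks of age, so the controls shared the loxP alleles and the drug and lacked the Cre. Adult livers were taken 1 to 2 months later, after 24 h of fasting or of feeding. The promoter that drives SA-CreERT2 and the part of Tcf7l2 that it removes are not named in the labels.

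TCF7L2 is a DNA-binding partner of beta-catenin, and Wnt signalling through beta-catenin is active in the hepatocytes around the central vein. CYP2E1, which oxidises ethanol, paracetamol and other small molecules, and CYP1A2, which oxidises caffeine and aromatic amines, are textbook enzymes of those pericentral hepatocytes. The aryl hydrocarbon receptor AHR pairs with ARNT after binding a ligand and switches on Cyp1a1, Cyp1a2 and Tiparp, and TIPARP in turn dampens the receptor. CYP2A5 oxidises coumarin and nicotine, and CYP2A4, its near-identical relative, hydroxylates steroids.

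Cyp2e1 was read by 1 probe and Cyp1a2 by a brighter probe (A_52_P595871) and a dimmer one (A_51_P450140), which gave different ratio changes. The 60 bases of the Cyp2e1 probe and of the dimmer Cyp1a2 probe are shown because the results for these genes turn on them. Positions are those in the array files, on mouse build mm9. The Cyp2e1 probe lies at chr7:147959585-147959644 on the plus strand, and the dimmer Cyp1a2 probe on the minus strand at chr9:57528863-57529512, a span of 650 bases because the probe crosses an intron.
Cyp2e1: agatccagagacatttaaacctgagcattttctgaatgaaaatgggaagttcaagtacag
Cyp1a2, dimmer probe: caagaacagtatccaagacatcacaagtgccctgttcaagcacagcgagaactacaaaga

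Cyp2a4 and Cyp2a5 could not be told apart with certainty. The array files list the Cyp2a5 transcript among the targets of all 3 Cyp2a4 probes. The brightest Cyp2a4 probe (A_52_P246255, chr7:27099932-27099991), whose values are given below, ends before the stretch that lines up with the Cyp2a5 probe. Its best ungapped placement on the Cyp2a5 probe matched 10 of 16 bases. As the probes read different stretches, this match does not show how well they separate the genes. Another Cyp2a4 probe (A_51_P377154, chr7:27099972-27100031, plus strand) shared 35 of 38 overlapping bases with the Cyp2a5 probe (chr7:27628169-27628228, plus strand). A 30-base stretch of that overlap is shown with the differing bases in capitals. It begins at base 1 of the Cyp2a5 probe and at base 23 of the Cyp2a4 probe, and the differences, numbered from the first base shown and from Cyp2a5 to Cyp2a4, were A8T, G9T and A10C.
Cyp2a5: aggacacAGAgtagacttgcagaggatatt
Cyp2a4: aggacacTTCgtagacttgcagaggatatt

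The promoters of Cyp2e1 and Cyp1a2 are shown because both genes are described as beta-catenin dependent, and each held 1 copy of a TCF core motif. CTTTGAA and CTTTGAT were searched on both strands of the 250 bases before each transcription start, from RefSeq on GRCm38.p6, together with GCGTG, the core of the AHR binding site. The Cyp2e1 window was chr7:140763569-140763818 on the plus strand, with CTTTGAA ending 128 bases before the start. The Cyp1a2 window was chr9:57683656-57683905 on the minus strand, with CTTTGAA on the opposite strand, read as TTCAAAG, 237 bases before the start. Capitals mark the motif.
Cyp2e1: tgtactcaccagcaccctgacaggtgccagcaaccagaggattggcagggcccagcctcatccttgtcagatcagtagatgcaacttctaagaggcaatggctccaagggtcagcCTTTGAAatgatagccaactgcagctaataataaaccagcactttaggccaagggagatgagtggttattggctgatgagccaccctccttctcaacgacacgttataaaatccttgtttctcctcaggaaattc
Cyp1a2: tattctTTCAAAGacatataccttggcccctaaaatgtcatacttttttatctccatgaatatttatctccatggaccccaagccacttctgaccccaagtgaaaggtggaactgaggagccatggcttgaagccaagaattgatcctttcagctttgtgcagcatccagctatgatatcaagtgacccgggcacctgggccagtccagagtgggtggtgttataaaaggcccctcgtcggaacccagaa

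A copy of CTTTGAA stood in 4.46% of 32851 such windows and either TCF motif in 7.48%. The windows of Cyp2a4 and Cyp2a5 held none of the 3 motifs. No window was available for Ahr, so its promoter was not searched. GCGTG, present in 28.2% of all windows, stood in those of Cyp1a1 (49 bases before the start), Arnt (24 bases) and Tiparp (165 bases, minus strand). These matches describe letters and show no binding.

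The liver channel was well above background at 50.2% to 64.4% of the spots on newborn and fasted arrays and at 22.8% to 31.2% on fed arrays, so dim genes such as Arnt were measured least well in fed livers. The number of arrays limits the precision of every value, and the p-values measure the spread between these samples. Each newborn genotype was hybridised on a slide of its own, so slide and genotype cannot be told apart in newborns, whereas every adult slide held both genotypes. The brightest Tcf7l2 probe (A_52_P566741) had log2 ratios of liver over reference of -1.85, -1.57, -1.58 and -1.63 in newborn knockouts, against -1.28, -0.83, -0.70 and -0.32 in newborn wild types, which did not overlap (change -0.87 ± 0.19, SE, adjusted p = 0.0582). In adults the same probe was no lower in knockouts, at 0.35 ± 0.17 fasted (adjusted p = 0.489) and 0.21 ± 0.20 fed (adjusted p = 0.999). The newborn difference was not seen with another Tcf7l2 probe (A_52_P146043), well above background on all 8 newborn arrays. It averaged 0.02 in newborn knockouts and -0.06 in newborn wild types. The dimmest probe (A_52_P316355), well above background on 0 newborn arrays, averaged -0.44 in newborn knockouts and -0.35 in newborn wild types. Because the removed part is not stated, these probes do not check the adult labels, and knockout liver means a liver labelled so. Summed levels of the 8 hepatocyte markers on the array overlapped between genotypes in fasted and in fed adults. In bulk liver, fewer cells of a type and less RNA per cell cannot be told apart.

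Glul, the glutamine synthetase of the innermost pericentral hepatocytes, served as the comparison gene. Its log2 ratio was 0.96, 1.44, 2.36 and 1.63 in fasted knockouts, against 3.90, 4.47, 5.14 and 4.64 in fasted controls, and 0.53, 0.45 and 0.28 in fed knockouts, against 4.18, 3.77 and 4.76 in fed controls. The groups did not overlap, and Glul fell 7.68-fold in fasted knockouts (log2 change -2.94 ± 0.31, adjusted p = 0.00034) and 14.1-fold in fed knockouts (-3.82 ± 0.35, adjusted p = 0.000154). In newborn knockouts its change was -0.21 (95% interval -0.96 to 0.54, adjusted p = 0.878).

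The genes were read in 3 ways: the log2 ratio of liver over reference, the liver channel alone after quantile normalization, and the reference channel alone by the same steps. On the ratio of each gene's brightest probe, Cyp2e1 alone changed with the knockout in adults, and passed the test when the fasted and fed changes were averaged. The dimmer Cyp1a2 probe was also lower on the ratio, in fed livers and on the average. On the liver channel, Cyp2e1, Cyp1a2, Cyp2a4 and Cyp2a5 were all lower in adult knockouts on that average, by 3.94-fold to 6.18-fold, and Ahr, Arnt and Tiparp did not pass the test. The reference channel, which received the same RNA on every array, was lower on adult knockout arrays too for Cyp2e1, Cyp1a2 and Cyp2a5 on that average, and for Cyp2a4 it changed by -2.32 without passing (adjusted p = 0.0635). The cause of that movement was not tested.

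On the ratio, 7 of the 8 genes were bright enough to be tested with limma, Cyp1a1 being the exception. In newborns none passed an adjusted p of 0.05, where 1.4% of 17175 genes did, and 1 had an unadjusted p under 0.05 (Cyp1a2), as did 2291 of all genes. In fasted adults none passed, where 0.465% of 17187 genes did, with 2 under the unadjusted threshold (Cyp2e1 and Tiparp), as were 1922 of all genes. In fed adults none passed, where 0.215% did, with 3 under the unadjusted threshold (Cyp2e1, Cyp2a5 and Ahr), as were 1227 of all genes. Averaged over feeding states, 1 was lower, where 0.5% of all genes were lower and 0.721% changed either way. The median change of the 7 genes was -0.04 in newborns, 0.02 in fasted adults, -0.32 in fed adults and -0.13 on the adult average, beside -0.01, 0.01, 0.02 and 0.02 over all genes.

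**Figure D1:**
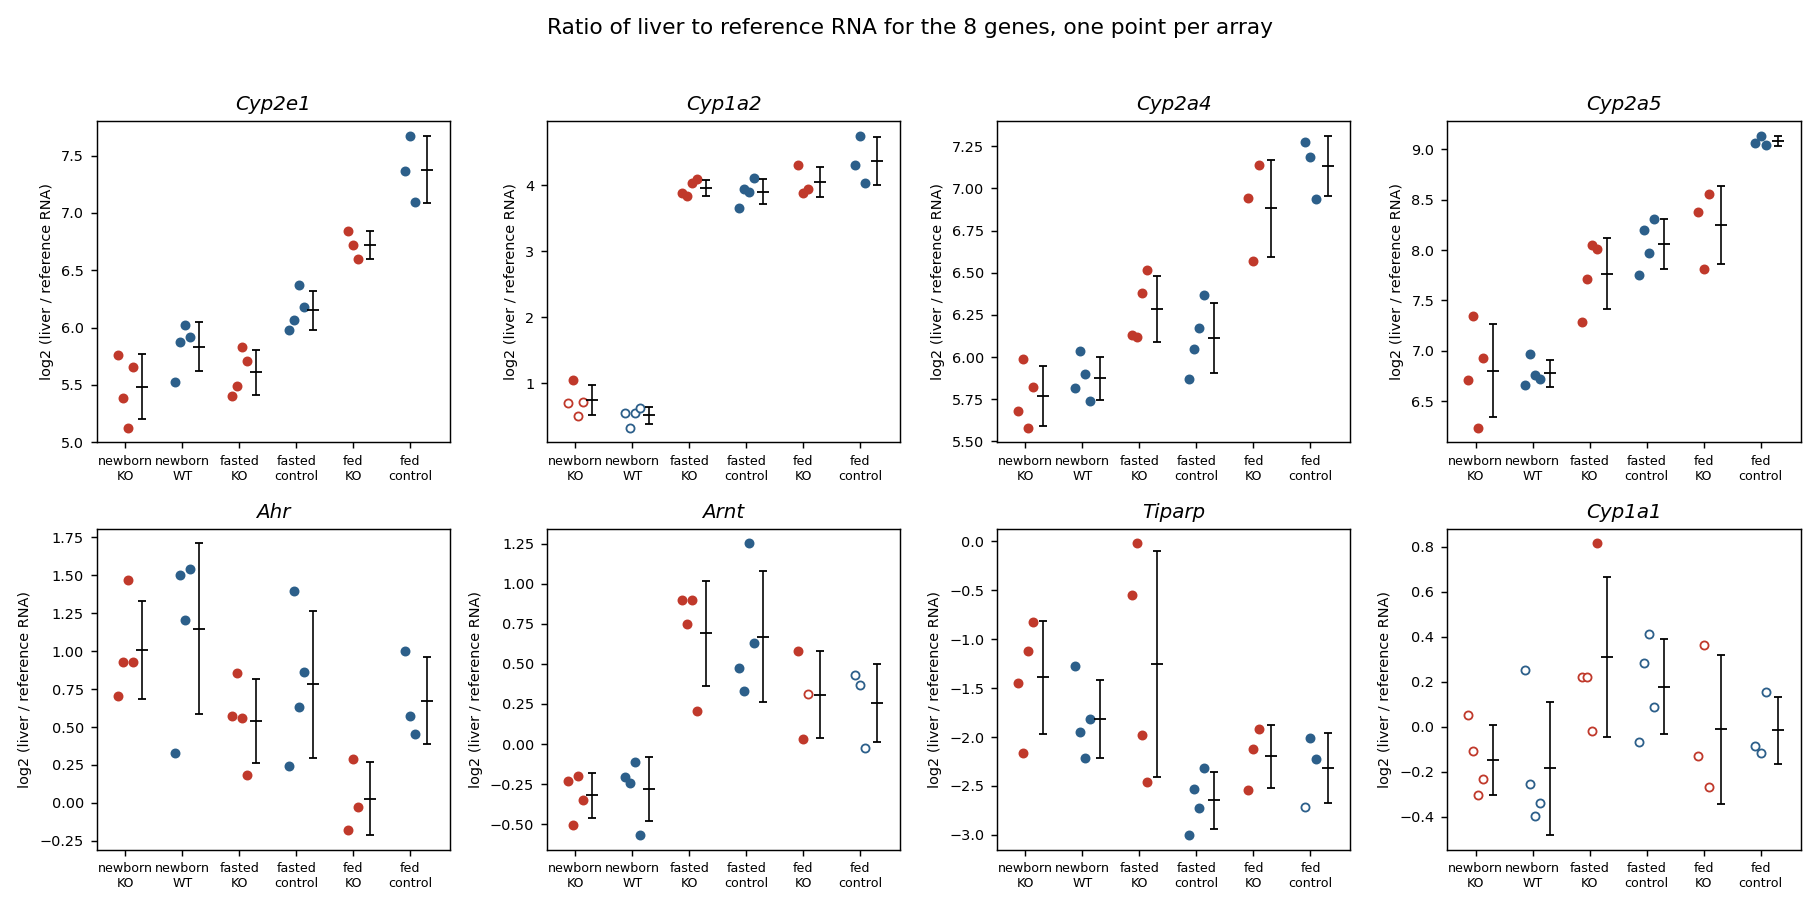
Log2 ratio of liver over reference for each gene (1 panel per gene, brightest probe) on every array, with the mean and SD of each group as bars, knockouts left of their controls. Open symbols were not well above background in the liver channel. Cyp2e1 separates the adult genotypes narrowly, while Cyp1a2 and Cyp2a4 overlap.

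On the liver channel, the counts were higher. Of the 7 tested genes, 1 was lower in newborn knockouts (Cyp2e1), where 0.728% of all genes were lower. In fasted knockouts 2 were lower (Cyp1a2 and Cyp2a5), where 0.308% of all genes were, and in fed knockouts 2 were lower (Cyp2e1 and Cyp1a2), where 0.262% were. On the adult average 4 were lower, where 0.489% were. None was higher in any of these 4 comparisons. The median change of the 7 genes was 0.07 in newborns, -0.60 fasted, -1.47 fed and -1.98 on the average, beside -0.03, 0.01, 0.03 and 0.01 over all genes.

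**Figure D2:**
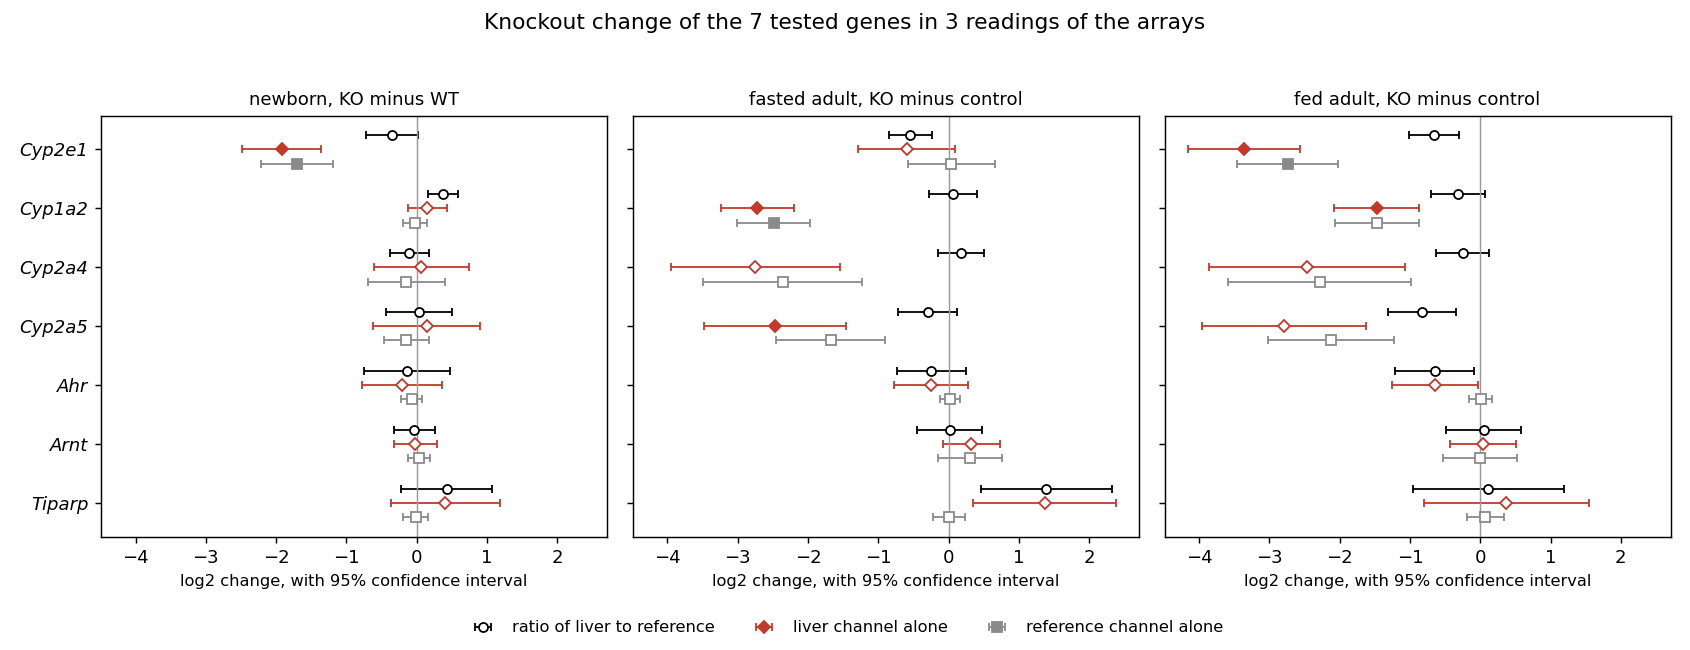
Log2 change, knockout minus control, with 95% confidence intervals, in newborn, fasted and fed livers for the 7 tested genes, on the ratio, the liver channel and the reference channel. Filled symbols passed an adjusted p of 0.05 and open ones did not. Liver-channel changes of Cyp1a2, Cyp2a4 and Cyp2a5 in adults lie at or beyond -1.47, while their ratio changes lie between -0.83 and 0.17.

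Cyp2e1 was lower in knockouts by both readings, but by very different amounts. Its log2 ratio was 5.40, 5.49, 5.83 and 5.71 in fasted knockouts, against 5.98, 6.07, 6.38 and 6.18 in fasted controls. It was 6.84, 6.72 and 6.59 in fed knockouts, against 7.37, 7.67 and 7.09 in fed controls. Every knockout lay below every control of its feeding state. The ratio changed by -0.54 ± 0.14 fasted (95% interval -0.85 to -0.24, adjusted p = 0.142) and by -0.66 ± 0.16 fed (-1.01 to -0.31, adjusted p = 0.227). Averaged over feeding states, Cyp2e1 fell 1.52-fold (-0.60 ± 0.11, adjusted p = 0.021). Leaving out 1 array at a time, this average passed in 11 of 14 fits and was lost without fasted knockout 2, fed knockout 2 or fed control 2, with adjusted p up to 0.0567. It was also lost with the authors' deposited ratios (-0.30, adjusted p = 0.377), a normexp offset of 16 (adjusted p = 0.0667) and outlier backgrounds kept (adjusted p = 0.0924).

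In the liver channel alone, Cyp2e1 in fed livers stood far apart between genotypes. Its median spot intensity was 5321, 4759 and 7313.5 units in fed knockouts, against 46135, 63145 and 62679 units in fed controls. After normalization the log2 levels were 12.87, 12.90 and 13.33 in fed knockouts, against 16.43, 16.45 and 16.31 in fed controls. Every fed knockout lay far below the lowest fed control, and Cyp2e1 fell 10.3-fold (-3.36 ± 0.37, adjusted p = 0.000602), which passed in all 6 fits that left out 1 fed array. Fasted livers overlapped, with 15.55, 14.29, 16.18 and 16.10 in knockouts, against 15.78, 16.18, 16.17 and 16.38 in controls (-0.60 ± 0.32, 95% interval -1.29 to 0.10, adjusted p = 0.469). The difference between the fasted and the fed knockout change was 2.77 ± 0.49 (95% interval 1.71 to 3.82) and did not pass over all genes (adjusted p = 0.555), where 0% of genes passed and 1255 had an unadjusted p under 0.05. With 1 array left out it passed in 1 of 14 fits, the one without fasted knockout 2, the lowest fasted liver (3.18, adjusted p = 0.000803), and the adjusted p reached 0.792 in the others.

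In newborns, Cyp2e1 was lower in the liver channel of knockouts. The levels were 13.47, 12.86, 13.55 and 13.61 in newborn knockouts, against 14.85, 15.32, 15.90 and 15.08 in newborn wild types, with no overlap. This was a 3.78-fold fall (-1.92 ± 0.25, adjusted p = 0.0143), which passed in 5 of 8 fits with 1 array left out and was lost without knockout 1, wild type 2 or wild type 3. The ratio changed by -0.35 ± 0.17 (95% interval -0.72 to 0.02, adjusted p = 0.407), with values overlapping. Slide moved with genotype here.

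In fasted livers, Cyp1a2 was lower in knockouts on the liver channel and overlapped on the ratio. With the brighter probe, the log2 ratio was 3.89, 3.83, 4.04 and 4.09 in fasted knockouts, against 3.65, 3.94, 3.90 and 4.11 in fasted controls. The groups overlapped, and the change was 0.06 ± 0.16 (95% interval -0.27 to 0.40, adjusted p = 0.941). The liver-channel intensity of the same spots was 922, 1234, 2258 and 2657 units in fasted knockouts, against 19852, 9873, 12552 and 9421.5 units in fasted controls. The reference-channel intensity was 324, 398, 682 and 719 units on the fasted knockout arrays, against 5509, 2803.5, 3203 and 2453 units on the fasted control arrays. In each of the 2 channels, every knockout array lay below every control array. Normalized, the liver channel fell 6.60-fold (-2.72 ± 0.24, adjusted p = 6.42e-05), and this passed in all 8 fits with 1 array left out. It was -3.19 on the first fasted slide and -2.25 on the second.

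In fed livers, Cyp1a2 had log2 ratios of 4.30, 3.89 and 3.95 in knockouts, against 4.31, 4.75 and 4.03 in controls, which overlapped (-0.32 ± 0.18, 95% interval -0.70 to 0.07, adjusted p = 0.834). Its liver channel read 10.55, 10.12 and 10.63 in fed knockouts, against 12.07, 11.91 and 11.73 in fed controls, with no overlap. This was a 2.78-fold fall (-1.47 ± 0.28, adjusted p = 0.0469) close to the threshold. It did not pass in any of the 6 fits with 1 fed array left out (adjusted p 0.0545 to 0.215), nor with slide as a fixed block (adjusted p = 0.0847). Averaged over feeding states, Cyp1a2 fell 4.28-fold in the liver channel (-2.10 ± 0.18, adjusted p = 2.67e-05).

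The dimmer Cyp1a2 probe gave a different ratio. It read 4.11, 4.09, 4.70 and 4.63 in fasted knockouts, against 4.67, 4.97, 5.04 and 5.13 in fasted controls, with 1 knockout above the lowest control. In fed livers it read 3.88, 3.35 and 3.40 in knockouts, against 4.73, 4.90 and 4.53 in controls, with no overlap. Used in place of the brighter probe, it gave -0.57 fasted (adjusted p = 0.22), -1.17 fed (adjusted p = 0.0322) and -0.87 on the average (adjusted p = 0.006). Its liver-channel changes, -2.54 fasted and -1.57 fed, were close to those of the brighter probe, and its reference channel changed less, by -1.83 fasted and -0.90 fed.

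In newborns, Cyp1a2 was near background. The brighter probe was well above background in 1 of 4 knockouts and 0 of 4 wild types. The dimmer probe was so in 4 of 4 knockouts and 1 of 4 wild types, with log2 ratios of 0.91, 0.88, 0.79 and 0.93 in knockouts, against 0.51, 0.37, 0.58 and 0.55 in wild types. The groups did not overlap, and the change of 0.37 ± 0.10 did not pass (adjusted p = 0.103). In the liver channel the groups overlapped (0.15 ± 0.12, 95% interval -0.12 to 0.43, adjusted p = 0.556).

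Cyp2a4 and Cyp2a5, read together because of their shared sequence, resembled Cyp1a2. The log2 ratio of Cyp2a4 was 6.13, 6.12, 6.38 and 6.52 in fasted knockouts, against 5.87, 6.05, 6.17 and 6.37 in fasted controls, and overlapped (0.17 ± 0.15, 95% interval -0.15 to 0.50, adjusted p = 0.742). Its liver channel read 11.70, 11.68, 12.04 and 13.49 in fasted knockouts, against 14.39, 15.31, 15.74 and 14.46 in fasted controls. In fed livers it read 12.81, 12.08 and 14.67 in knockouts, against 15.13, 15.26 and 16.56 in controls. No knockout reached a control of its feeding state, although fasted knockout 4 and fed knockout 3 lay well above the other knockouts. The falls, -2.75 ± 0.56 fasted (adjusted p = 0.055) and -2.46 ± 0.65 fed (adjusted p = 0.257), passed as an average (-2.60 ± 0.43, 6.08-fold, adjusted p = 0.0093). The other 2 Cyp2a4 probes (A_51_P377154 and A_52_P9703) had liver-channel changes of -2.66 and -3.13 fasted and -1.76 and -2.18 fed. Unlike the brightest probe, both had lower mean ratios in fasted knockouts, at 6.48 and 4.51, against 6.88 and 4.83 in fasted controls. The means were 7.24 and 4.64 in fed knockouts, against 7.76 and 5.34 in fed controls. Each of these ratio comparisons overlapped. With probe A_51_P377154 in place of the brightest, the average of -2.21 did not pass (adjusted p = 0.189).

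Cyp2a5 had log2 ratios of 7.29, 7.71, 8.05 and 8.01 in fasted knockouts, against 7.76, 8.20, 7.97 and 8.31 in fasted controls, which overlapped (-0.29 ± 0.19, 95% interval -0.71 to 0.12, adjusted p = 0.636). In fed livers the ratios were 8.38, 7.81 and 8.56 in knockouts, against 9.07, 9.13 and 9.04 in controls, which did not overlap (-0.83 ± 0.22, 95% interval -1.31 to -0.35, adjusted p = 0.275). The liver channel read 12.10, 12.20, 12.99 and 13.87 in fasted knockouts, against 15.16, 16.01, 14.66 and 15.21 in fasted controls, and 13.12, 12.83 and 14.51 in fed knockouts, against 15.77, 15.88 and 17.18 in fed controls. As with Cyp2a4, all knockouts lay below all controls. Cyp2a5 fell 5.54-fold fasted (-2.47 ± 0.47, adjusted p = 0.0382), changed by -2.79 ± 0.54 fed (adjusted p = 0.0565), and fell 6.18-fold on the average (-2.63 ± 0.36, adjusted p = 0.00176). The fasted call held in 1 of 8 fits with 1 array left out, the one without knockout 4, with adjusted p up to 0.138, whereas the average held in all 14.

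In newborns, neither Cyp2a gene passed on its brightest probe. Cyp2a4 averaged a log2 ratio of 5.77 ± 0.18 in knockouts and 5.87 ± 0.13 in wild types (SD, n = 4 each), a change with a 95% interval of -0.38 to 0.17. Its probe A_51_P377154 averaged 5.86 in knockouts and 6.39 in wild types, with overlap. Probe A_52_P9703 averaged 2.58 in knockouts and 3.42 in wild types, without overlap. Cyp2a5 averaged 6.80 ± 0.46 in knockouts and 6.78 ± 0.13 in wild types, with an interval of -0.44 to 0.49. Liver-channel changes of the brightest probes were 0.07 for Cyp2a4 and 0.14 for Cyp2a5. Newborn levels of both genes were thus low relative to adult controls in the liver channel, at 11.87 for Cyp2a4 in knockouts and 11.81 in wild types.

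**Figure D3:**
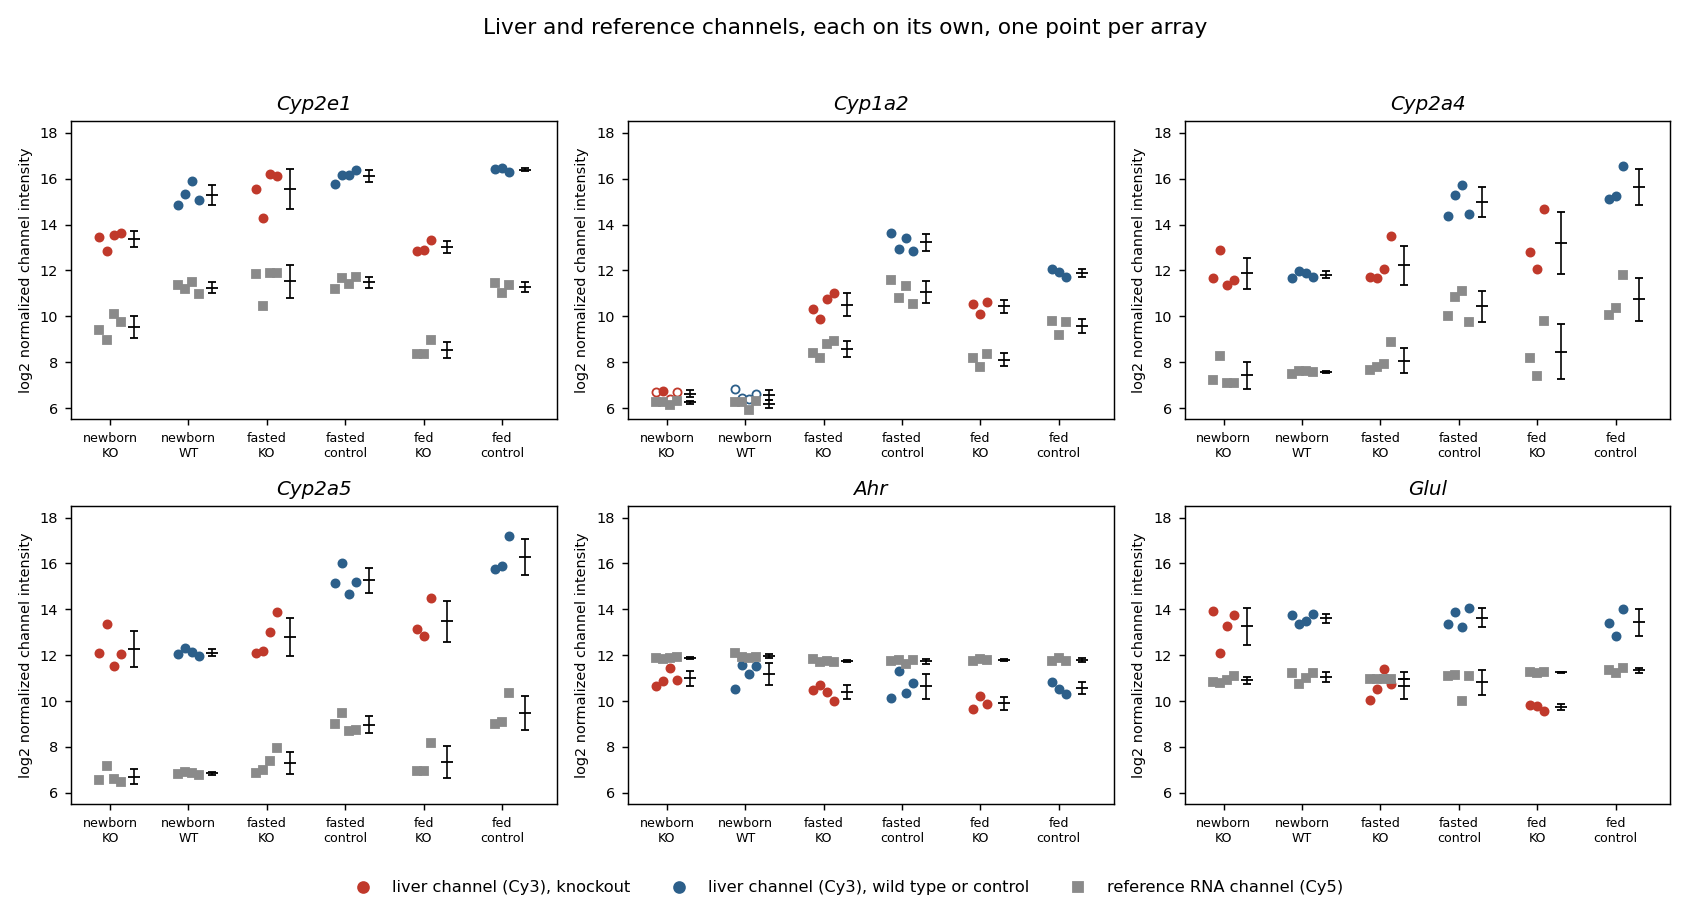
Normalized log2 intensity of the liver channel and of the reference channel for Cyp2e1, Cyp1a2, Cyp2a4, Cyp2a5, Ahr and Glul on every array, with group means and SD as bars, knockouts left of their controls. Open symbols were not well above background in the liver channel. In adults the reference channel of Cyp1a2 is lower on knockout arrays than on control arrays, as the liver channel is.

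The reference channel was tested in the same way, after its movement had been seen. Cyp2e1 was lower on newborn knockout arrays (-1.70 ± 0.23, adjusted p = 0.00163), where 4.43% of all genes were, and on fed knockout arrays (-2.74 ± 0.33, adjusted p = 0.0292), where it was the only gene of 17187 to pass, or 0.00582%. Cyp1a2 was lower on fasted knockout arrays (-2.49 ± 0.24, adjusted p = 0.000764), 1 of 8 genes or 0.0465% of all. On the adult average Cyp2e1, Cyp1a2 and Cyp2a5 were lower, 3 of 14 such genes or 0.0815% of all, and Cyp2a4 changed by -2.32 ± 0.40 (adjusted p = 0.0635). In fasted livers, the reference channel of Cyp2e1 changed by 0.04 ± 0.29 (adjusted p = 0.957), and its liver channel did not pass there either. For the brightest Glul probe (A_52_P101279), by contrast, the reference changed by 0.13 ± 0.20 fasted and -0.08 ± 0.23 fed while the liver channel changed by -2.97 and -3.69. The other Glul probes had lower reference means on knockout arrays. Probe A_52_P143866 averaged 8.33 on fasted knockout and 9.17 on fasted control arrays, and 7.58 and 8.15 on the fed ones. Probe A_51_P441798 averaged 6.77 and 7.02 on the fasted arrays, and 7.22 and 7.47 on the fed ones.

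**Figure D4:**
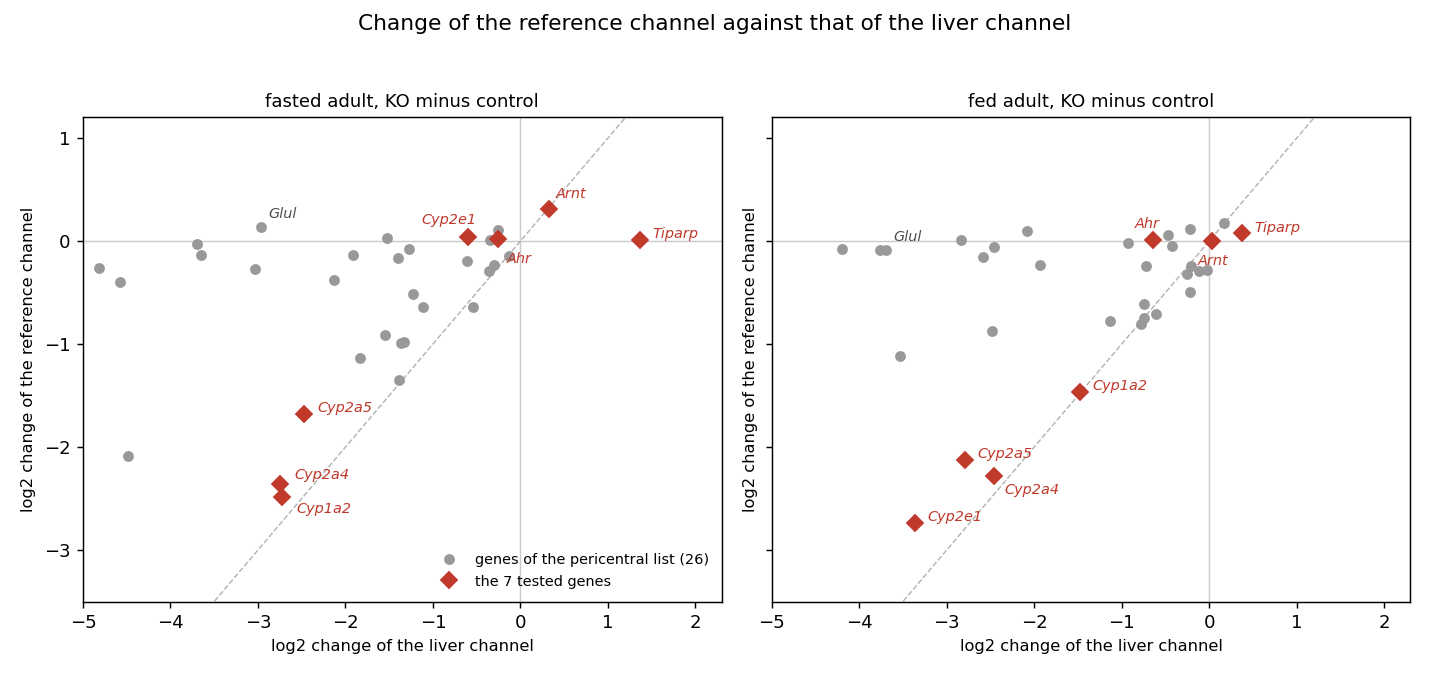
Log2 change of the reference channel (y axis) against that of the liver channel (x axis), knockout minus control, in fasted and in fed adults, for the 7 tested genes (diamonds) and the 26 tested genes of the pericentral list (grey circles). The dashed line marks equal change in both channels. Cyp1a2 and Cyp2a4 lie near that line at about the same distance down, whereas Glul, on its brightest probe, lies far to the left at little reference change.

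Other pericentral genes showed that the movement was not shared by all that fell. Of 26 tested genes of a list of pericentral genes outside the 8, 12 were lower on the ratio in fasted knockouts, where 0.355% of all genes were, and 7 in fed knockouts, where 0.186% were, with median changes of -0.92 and -0.50, beside 0.01 and 0.02 over all genes. On the liver channel 13 and 9 were lower, where 0.308% and 0.262% of all genes were, with medians of -1.39 and -0.76, beside 0.01 and 0.03. Lhpp, a phosphatase, changed by -4.33 in both feeding states on the ratio, Oat, the ornithine aminotransferase, changed by -3.86 and -3.89, and Aldh3a2, a fatty aldehyde dehydrogenase, by -3.26 and -2.35 (adjusted p at most 0.000154). Their reference channels changed by -0.39 to 0.10. The glutamate transporter gene Slc1a2 changed by -3.90 fasted on the ratio with a reference change of -2.09, and in fed livers, where no knockout array was well above background, it was at least 6.27-fold lower. Sp5, a Wnt target, was at least 14.6-fold lower in fasted knockouts, of which none was well above background, and Tnfrsf19, another Wnt target, at least 4.31-fold lower in fed knockouts, where 0 of 3 knockouts and 2 of 3 controls were well above background. Gulo, which makes vitamin C, was lower in fasted knockouts on the liver channel and not on the ratio, with a ratio change of 0.18 and a reference change of -1.35. Over all genes, 27 were at least 4-fold lower in the liver channel of fasted knockouts, and the reference was at least 2-fold lower for 11 of these, against 165 of 17187 overall. In fed knockouts it was 6 of 28, against 17 overall.

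Among the receptor genes, Cyp1a1, the classic AHR target, was not measurable. Its probe (chr9:57551535-57551594, plus strand) was well above background on 1 of 22 arrays, fasted knockout 4, where its log2 ratio was 0.82. It was therefore tested in no comparison.

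Ahr, the receptor itself, was read by 1 probe printed 10 times (chr12:36182924-36182983, minus strand) and was well above background on all 22 arrays. Its log2 ratio was -0.18, 0.29 and -0.03 in fed knockouts, against 1.00, 0.57 and 0.45 in fed controls. These did not overlap, and the change of -0.65 ± 0.26 (95% interval -1.21 to -0.09) did not pass (adjusted p = 0.612). In fasted livers the ratio was 0.57, 0.86, 0.56 and 0.18 in knockouts, against 0.24, 1.40, 0.63 and 0.87 in controls, with overlap (-0.24 ± 0.23, adjusted p = 0.766). The average over feeding states was -0.44 ± 0.17 (95% interval -0.82 to -0.07, adjusted p = 0.406). In newborns it was 0.70, 0.93, 1.47 and 0.93 in knockouts, against 0.33, 1.50, 1.21 and 1.54 in wild types (-0.14, 95% interval -0.75 to 0.47). The liver channel gave nearly the same changes, -0.25 fasted and -0.64 fed, and the reference channel of Ahr changed by 0.02 and 0.01.

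Arnt, the partner of AHR, showed intervals around 0 in each knockout comparison on its brightest probe. Its brightest probe (chr3:95300932-95300991) had log2 ratios of 0.90, 0.75, 0.90 and 0.21 in fasted knockouts, against 0.47, 0.33, 1.25 and 0.63 in fasted controls, which overlapped (0.02, 95% interval -0.44 to 0.48). In newborns it had -0.23, -0.50, -0.20 and -0.35 in knockouts, against -0.20, -0.24, -0.11 and -0.57 in wild types (-0.04, 95% interval -0.33 to 0.25). In fed livers it was well above background in 2 of 3 knockouts and 0 of 3 controls, so no fold is given. The other 3 Arnt probes (A_51_P494196, A_52_P577150 and A_52_P84015) were not well above background on any fed array, and their ratio changes in fasted livers were 0.14, 0.05 and -0.13. Their newborn ratios averaged 0.22, -0.003 and -0.41 in knockouts, against -0.09, -0.04 and -0.22 in wild types. Probe A_52_P577150 averaged 7.31 in newborn knockouts and 6.93 in wild types on the liver channel, without overlap. Its reference channel averaged 8.68 and 8.04.

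Tiparp, the AHR target that dampens the receptor, varied widely among fasted knockouts. Its log2 ratio was -0.55, -0.02, -1.98 and -2.47 in fasted knockouts, against -3.00, -2.53, -2.73 and -2.32 in fasted controls. Fasted knockouts 1, 2 and 3 lay above all controls and knockout 4 lay within them. The change of 1.39 ± 0.43 (95% interval 0.46 to 2.32) did not pass (adjusted p = 0.228), and it was 2.48 on the slide of replicates 1 and 2 and 0.30 on the slide of replicates 3 and 4. Fed livers read -2.55, -2.13 and -1.92 in knockouts, against -2.71, -2.01 and -2.22 in controls (0.12 ± 0.50, adjusted p = 0.999). Newborn livers read -1.45, -2.16, -1.12 and -0.83 in knockouts, against -1.27, -1.95, -2.22 and -1.81 in wild types (0.42 ± 0.29, adjusted p = 0.63). The fasted knockouts also varied in summed levels of pancreas and fat markers, 2141 to 59434 intensity units with all 9 genes well above background on some array, against 2236 to 3414 units with 2 genes on none in fasted controls, and in those of bile duct markers, 2119 to 7938 units against 1741 to 2059 units. The part of these cells in the Tiparp values was not tested.

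No gene of 2 lists, of AHR partners and of AHR targets, passed on the ratio. Of 10 tested partners and regulators, among them Ahrr, Ptges3, Hif1a and both cytosolic Hsp90 genes, none passed in newborn, fasted or fed knockouts, with 1 under an unadjusted p of 0.05 in each, where 2291 of 17175, 1922 of 17187 and 1227 of 17187 genes were, and their median changes were -0.01, -0.03 and -0.11. Of 10 tested target genes, among them Nqo1, Cyp1b1 and Xdh, none passed, with 0, 2 and 2 under the unadjusted threshold and medians of -0.05, 0.002 and -0.10. Single changes of these targets ranged from -0.15 to 1.06 in fasted and from -0.41 to 0.61 in fed livers.

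Regulators and partners of the P450 enzymes had no passing gene on the ratio either. None of 16 regulators of hepatic P450 genes, including Hnf4a, Cebpa, Nr1i2, Nr1i3, Rxra and Ctnnb1, passed on the ratio in newborn, fasted or fed livers. Of these regulators 3, 0 and 2 had an unadjusted p under 0.05, where 2291 of 17175, 1922 of 17187 and 1227 of 17187 genes did. Their median changes were -0.12, 0.02 and 0.12. None of 12 genes for electron partners and heme synthesis, including Por and Cyb5a, passed on the ratio, with 2, 3 and 0 under the unadjusted threshold and medians of -0.10, -0.13 and -0.08. Alas1, the first enzyme of heme synthesis, was higher in newborn knockouts on the liver channel alone (0.70, adjusted p = 0.0394).

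Other P450 genes of families 1 to 3 moved in both directions. In fasted knockouts 3 of 40 tested genes were higher on the ratio, where 0.111% of all genes were: Cyp2b10 by 3.72 ± 0.47 (adjusted p = 0.00173, 1 of 4 controls well above background), Cyp2b9 by 4.18 ± 0.68 (adjusted p = 0.0123) and Cyp2b13 by 3.58 ± 0.67 (adjusted p = 0.0336), xenobiotic-metabolising enzymes of which only Cyp2b10 passed on the liver channel. Cyp2c38 was at least 8.49-fold lower, with no fasted knockout well above background. In newborn knockouts 1 of 37 was lower on the ratio, where 0.326% of all genes were, Cyp2c37 (-1.63 ± 0.30, adjusted p = 0.0373). On the newborn liver channel 5 of 37 were higher, where 3.83% of all genes were, and 2 lower, where 0.728% were. In fed knockouts none of 40 passed on the ratio, and 1 was lower on the liver channel, where 0.262% of all genes were. Cyp2c39 had the pattern of Cyp1a2 in fasted knockouts, with a ratio change of -0.23, a liver change of -2.92 (adjusted p = 0.00243) and a reference change of -2.45 (adjusted p = 0.0488).

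Fasting lowered the ratio of 3 of the 7 genes in controls, where 15.2% of all genes were lower. Cyp2e1 averaged 6.15 ± 0.17 in fasted controls and 7.38 ± 0.29 in fed controls (change -1.23 ± 0.16, adjusted p = 0.000141), Cyp2a4 changed by -1.02 ± 0.17 (adjusted p = 0.000721) and Cyp2a5 by -1.01 ± 0.22 (adjusted p = 0.00362). In knockouts 2 were lower, where 15.6% of all genes were: Cyp2e1 averaged 5.61 ± 0.19 in fasted knockouts and 6.72 ± 0.12 in fed knockouts (-1.11 ± 0.16, adjusted p = 0.000279), and Cyp2a4 changed by -0.60 ± 0.17 (adjusted p = 0.0157), a call lost without fed knockout 3 (-0.45, adjusted p = 0.0796). On the liver channel neither Cyp2a gene passed with fasting in either genotype. All 8 hepatocyte markers were lower with fasting on the ratio as well, with medians of -1.78 in knockouts and -1.40 in controls, beside 0.04 and 0.05 over all genes. On the liver channel their medians were 0.07 in knockouts and 0.22 in controls. The part of this shift in the values of the P450 genes was not tested. The fasting changes of both genotypes used separate animals, and none of the 7 genes differed between genotypes in its fasting change on the ratio, where 0% of all genes did and 1136 genes, none of them among the 7, had an unadjusted p under 0.05. Feeding state moved with slide, because each adult slide held 1 state.

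The liver channel turned the fasting direction of Cyp2e1 in knockouts and of Cyp1a2 in controls. Cyp2e1 was higher in fasted than in fed knockouts (15.53 ± 0.87 fasted and 13.03 ± 0.26 fed, change 2.49 ± 0.35, adjusted p = 0.000309), and in controls it changed by -0.26 ± 0.35 (adjusted p = 0.59). Cyp1a2 was higher in fasted than in fed controls (13.22 ± 0.37 fasted and 11.90 ± 0.17 fed, 1.32 ± 0.27, adjusted p = 0.00213), and in knockouts it changed by 0.07 ± 0.27 (adjusted p = 0.876). Arnt was higher in fasted livers of both genotypes (adjusted p = 6.45e-05 in knockouts and 0.000109 in controls). No fold is given, because 2 of 3 fed knockouts and 0 of 3 fed controls were well above background. In all, 2 of 7 genes were higher in controls, where 21.4% of all genes were, and 2 in knockouts, where 16.4% were. The reference channel moved with these changes, by 2.99 for Cyp2e1 in knockouts, 1.49 for Cyp1a2 in controls, and 1.32 and 1.63 for Arnt in controls and in knockouts. Such movement was common, although every array received the same reference RNA. With fasting, 59.8% of all genes changed either way on the reference channel in controls and 56.4% in knockouts. Higher were 26.7% in controls and 25.8% in knockouts, and the cause was not tested.

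**Figure D5:**
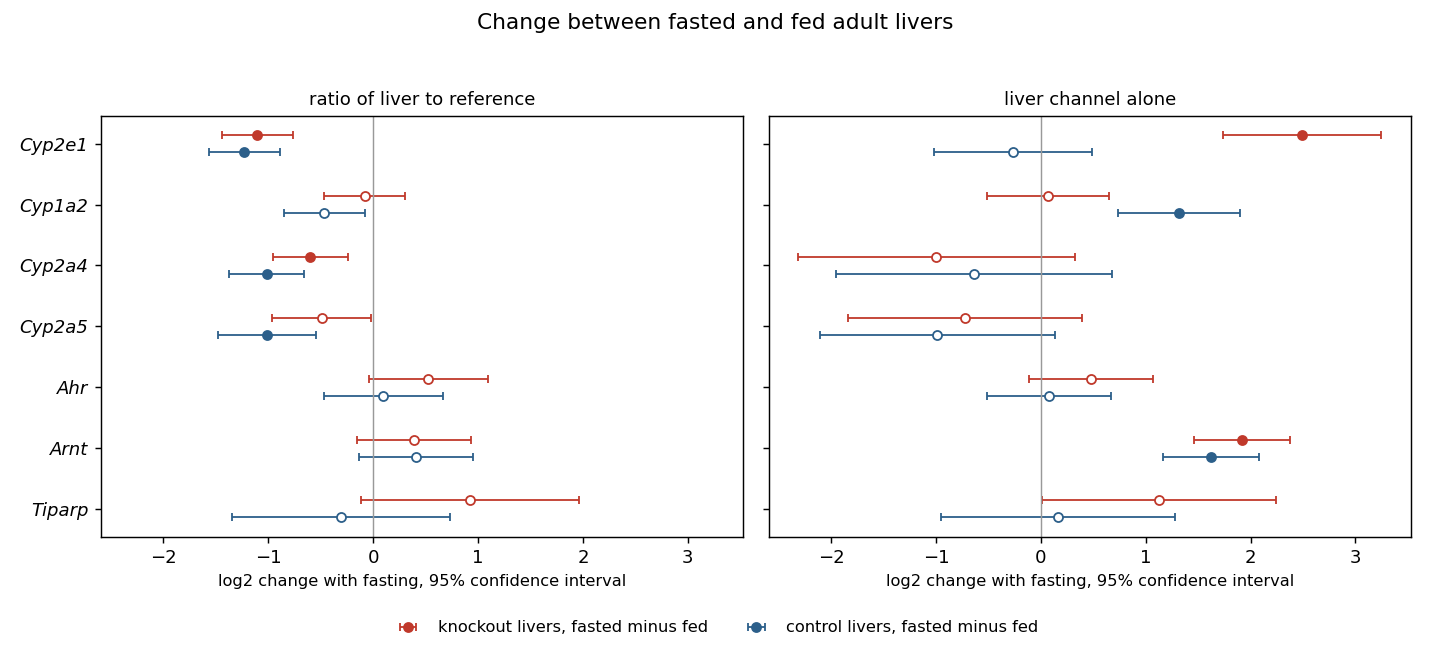
Log2 change with fasting, fasted minus fed, with 95% confidence intervals, for the 7 tested genes in knockout and in control livers, on the ratio and on the liver channel. Filled symbols passed an adjusted p of 0.05 and open ones did not. Cyp2e1 in knockouts lies at -1.11 on the ratio and at 2.49 on the liver channel.

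Ordered by the mean liver channel, Cyp2e1 ran from fed controls (16.39) through fasted controls (16.13), fasted knockouts (15.53) and newborn wild types (15.29) to newborn knockouts (13.37) and fed knockouts (13.03). Of these neighbours only newborn wild types and newborn knockouts had separate ranges. Cyp1a2 ran from fasted controls (13.22) to fed controls (11.90), fasted knockouts (9.88 to 11.03 over the 4 arrays) and fed knockouts (10.43), with only the knockouts overlapping among neighbours, and then to newborns near background. Cyp2a5 ran from fed controls (16.28) and fasted controls (15.26), which overlapped, to fed knockouts (13.49) and fasted knockouts (12.79), separate from both. Ahr ran on the ratio from 1.15 in newborn wild types to 0.03 in fed knockouts with every pair of neighbours overlapping.

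Genes with the most similar ratio profiles over the 14 adult arrays were picked by the smallest root mean square difference, after each gene was centred, among 17030 genes. For Cyp2e1 these were Snx32 (0.239), NAP029730-1 (0.258) and Aldh2 (0.259), beside an SD of 0.672 for Cyp2e1 itself. For Cyp1a2 they were AK053682 (0.143), AK220117 (0.149) and Vkorc1 (0.149), beside an SD of 0.258. For Cyp2a5 they were Terf2 (0.225), Sh2b3 (0.25) and AK016978 (0.256), and for Ahr Gyg (0.253), Sdcbp2 (0.253) and Cenpw (0.27).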

How the data were processed

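Per the labels, liver RNA was labelled with Cy3 and a common reference RNA with Cy5, with no dye swap. Per the file headers, the deposited intensity values are median spot and local background brightness without normalization, from Agilent Feature Extraction 10.5.1.1 (8.5.1.1 per the submitters' processing notes). The deposited log10 ratios are reference over liver, background-subtracted and dye-normalized, per the file headers, and were used as an alternative. Intensities were corrected with normexp (offset 50), local backgrounds marked as outliers were replaced by the array median, and each array was normalized with loess and turned to log2 liver over reference. Channels alone were quantile-normalized over 22 arrays. Probes well above background in the liver channel on at least 4 newborn or 3 adult arrays were kept, the brightest per gene. Genes were named through a RefSeq table of GRCm38.p6 (32831 probes; 8343 kept the file's name). Groups were compared with limma 3.58.1 in R 4.3.3 (newborn fit 8 arrays, 6 residual degrees of freedom; adult fit 14 arrays, 4 group means, 10 residual degrees of freedom), with Benjamini-Hochberg adjustment over all genes and slide as a random block for fasting. "At least" folds set the bright group's mean liver channel (loess, Aquantile) against the higher of the dim spot and the lowest signal well above background on each dim array. Scripts were tested on simulated data, and figures used matplotlib 3.10.9. The genes and gene lists, and the rule for named genes (all 8 with every probe, Tcf7l2, Glul, up to 4 passing genes per list and the 3 most similar genes), were chosen with earlier results of these data known. Replacement of outlier backgrounds and the reference-channel reading followed from seeing the data.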

Additional observations from a re-analysis of the deposited data

How the results depend on the processing

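Of 574 ratio values of the genes under other settings, 474 kept their direction and side of the threshold, and of 155 liver-channel values 135 did. With 1 array left out, 411 of 448 ratio values and 410 of 448 liver-channel values did, and the calls lost are named with the results. Called values that changed sign were Cyp1a2 fasted knockout minus control (-2.72 on the liver channel and -2.75 with it scaled to the 75th percentile, a setting chosen after seeing the data, as were other probes), Cyp1a2 fasted minus fed in controls (1.32 and 1.49), Cyp2e1 fasted minus fed in knockouts (2.49 and 2.54), Cyp2a4 fasted with the percentile (-2.67), and Arnt in the newborn liver channel with probe A_52_P577150 (0.38). The cause was not tested.

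Counts of genes called moved with the background step, the reading, array weights and single arrays. With outlier backgrounds kept they were 0 in newborns (main 241), 149 fasted (80), 11 fed (37), 51 on the average (124), and 1930 and 2238 for fasting in knockouts (5598) and controls (5759). With the deposited ratios they were 428 newborn, 11 for the interaction (main 0) and 8713 and 8720 for fasting in knockouts and controls. Newborn calls were 852 with array weights, 156 with both channels well above background and 782 on the liver channel alone. Fasting calls in controls were 8665 without the filter on dim probes and 8875 on the liver channel scaled to the 75th percentile. The share of higher against lower calls moved too: fasted knockout calls were 120 higher and 29 lower with outlier backgrounds kept, against 19 and 61, and fasting calls in controls 7101 and 1619 with the deposited ratios, against 3148 and 2611. Slide as a fixed block gave 131 fasted calls, and fitting only the 2 groups gave 22 fed calls.

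With the replicate block, calls were 42 fasted, 20 fed and 61 on the average. Correlations of same-numbered samples ran from -0.215 to 0.466 and were over 0.1 for every pair in none of the 3 comparisons (3 of 4 pairs in newborns), so the numbers were not taken as pairs. With 1 array left out the counts were 59 to 406 newborn, 58 to 137 fasted, 30 to 97 fed, 78 to 127 on the average, 0 to 12 for the interaction, and 4282 to 5149 and 4137 to 5405 for fasting in knockouts and controls. Low signal limits Arnt in fed livers and Cyp1a1 on nearly all arrays.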

Other observations

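Of 10 Kupffer cell markers, 1 was lower in newborn knockouts on the ratio (median -0.63), where 0.326% of all genes were (median -0.01). On the liver channel 4 were lower (median -0.50), where 0.728% of all genes were (median -0.03). The summed liver-channel level of these markers was 27824 to 41387 intensity units in newborn knockouts, against 51072 to 73735 units in newborn wild types. Slide moved with genotype in these newborns. The Y-chromosome genes Ddx3y and Eif2s3y were well above background on all 14 adult arrays, and the newborn groups held both arrays with and without Xist. In fed adults the liver channel of Xist read 8.8, 6.8 and 8.5 in knockouts and 9.0, 9.0 and 8.6 in controls. In fasted adults it read 6.2, 6.4, 6.2 and 6.3 in knockouts and 6.0, 6.2, 6.1 and 6.3 in controls. Among adults, only fed knockout 1 was well above background for Xist. The periportal gene Sdsl, a serine dehydratase-like enzyme, was higher on the ratio in newborn (1.07), fasted (0.75) and fed (0.86) knockouts (adjusted p 0.0397, 0.00838 and 0.0155 in that order, limma). Cyp2a4 read by its probe across an intron (chr7:27098659-27099724, A_52_P9703) had a newborn ratio change of -0.84 ± 0.17 with a reference change of 0.84 and a liver change of 0.07.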
